A study of Mus musculus with 6 samples.

Results

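Complex I, the NADH dehydrogenase of the mitochondrial respiratory chain, was examined through its nuclear genes in oocytes of aged mice. Genes were taken by name and class: every symbol that begins with Nduf and is marked protein coding. Of 25631 listed genes, 17773 of them protein coding, 51 met this rule. Of these, 37 are subunits of the complex (7 core subunits, 9 other subunits of the matrix arm, 20 of the membrane arm and the acyl carrier Ndufab1). A further 8 are assembly factors, 2 are Ndufa4 and its paralog Ndufa4l2, which are now counted with complex IV, and 4 are other genes with such symbols (Ndufab1-ps, Ndufb4b, Ndufb4c and Ndufs6b).

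Complex I takes electrons from NADH to ubiquinone and pumps protons across the inner membrane, and it is the entry point of most electrons into the chain. Its matrix arm carries the flavin and the iron-sulphur clusters, while its membrane arm pumps the protons, with a core that the mitochondrial genome encodes. Oocytes hold very many mitochondria, rely on pyruvate supplied by the granulosa cells around them, and keep complex I low while they lie dormant in primordial follicles.

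The oocyte RNA came from naturally aged mice, 14 months old, as 3 libraries of an untreated control group and 3 of an aminophylline group, 6 in all. Aminophylline, a theophylline derivative that inhibits phosphodiesterases and so raises cAMP, was given at 4 mM in drinking water for 1 week, followed by 3 weeks of water only. All mice had received eCG, a gonadotropin that grows follicles, and the oocytes came from large antral follicles. How many mice and oocytes went into a library is not given, so p-values measure the spread between these libraries, which may be technical, and fewer cells of a type cannot be told apart from less RNA per cell.

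Totals ran from 14112341 reads in control 2 to 33641283 in control 1. The 10 oocyte markers, among them Gdf9, Zp3 and Ooep, all reached an FPKM of 1, and their summed level was 8366 to 14116 in control and 10755 to 13085 with aminophylline. FPKM is the number of fragments divided by the length of the transcript and the size of the library. Of 10 granulosa cell markers 3 reached this level. The list summed to 15.96 to 23.69 in control and 17.45 to 22.58 with aminophylline. The 3 were Cyp19a1 (7.365 to 15.7 FPKM over all libraries), Nr5a2 (4.426 to 8.534) and Inha (0.4172 to 1.656), while Amh was at 0 in 5 libraries. The 7 markers of stroma (sums of 0.7915 to 1.828), 4 of erythrocytes (0.0486 to 0.5853) and 2 of endothelium (5.011 to 6.821) were low in both groups. Macrophage markers differed in 1 library. Their sum was 257.4 in control 1 and 81.95 to 103.3 in the other 5 libraries, and 10 of the 12 were highest in control 1. In the other 5 libraries nearly all of this sum was C1qb, at 79.23 to 99.81 FPKM, against 72.29 in control 1. Lyz2, by contrast, measured 66.43 FPKM in control 1 and at most 0.5728 in the others.

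Before the values, the start regions of 4 members are shown, with some of the short strings that were searched in them marked. Of the 51 members, 42 had a promoter in the RefSeq table of GRCm38.p6, a window of 250 bases before to 50 after the annotated start. No promoter is shown for Ndufa2, Ndufa4l2, Ndufab1-ps, Ndufaf6, Ndufb4c, Ndufb9, Ndufs1 and Ndufs6b, among others. Ndufv1 is shown because it had the smallest p among the subunits, Ndufs7 and Ndufs6 because they hold the YY1 string AAGATGGC, and Ndufa6 because it holds the core NRF1 string GCATGCGC. Capitals mark only the YY1 and core NRF1 strings. The window of Ndufa6 also held the SP1 string GGGCGG, which is left in lower case. The windows are Ndufv1 chr19:4012706-4013005 (minus strand), Ndufs7 chr10:80249199-80249498 (plus strand), Ndufs6 chr13:73328433-73328732 (minus strand) and Ndufa6 chr15:82354242-82354541 (minus strand), each read 5′ to 3′ on the strand of its gene.
Ndufv1: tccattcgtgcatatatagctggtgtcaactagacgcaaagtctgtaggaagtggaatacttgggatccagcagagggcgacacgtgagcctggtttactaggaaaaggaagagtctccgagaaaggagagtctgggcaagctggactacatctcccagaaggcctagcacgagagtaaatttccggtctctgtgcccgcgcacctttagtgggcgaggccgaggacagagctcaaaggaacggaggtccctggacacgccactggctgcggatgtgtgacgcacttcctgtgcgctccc
Ndufs7: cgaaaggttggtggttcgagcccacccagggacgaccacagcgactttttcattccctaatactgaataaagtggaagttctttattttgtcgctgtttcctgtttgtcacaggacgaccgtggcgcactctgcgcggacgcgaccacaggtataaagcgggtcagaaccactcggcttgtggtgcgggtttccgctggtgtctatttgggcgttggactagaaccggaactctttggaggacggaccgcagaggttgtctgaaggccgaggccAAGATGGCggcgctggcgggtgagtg
Ndufs6: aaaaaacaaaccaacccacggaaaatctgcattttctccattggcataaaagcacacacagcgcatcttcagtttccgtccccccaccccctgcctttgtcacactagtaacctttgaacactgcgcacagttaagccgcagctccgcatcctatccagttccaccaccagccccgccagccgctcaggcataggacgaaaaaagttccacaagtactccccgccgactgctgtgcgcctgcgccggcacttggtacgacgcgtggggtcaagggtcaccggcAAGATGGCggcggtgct
Ndufa6: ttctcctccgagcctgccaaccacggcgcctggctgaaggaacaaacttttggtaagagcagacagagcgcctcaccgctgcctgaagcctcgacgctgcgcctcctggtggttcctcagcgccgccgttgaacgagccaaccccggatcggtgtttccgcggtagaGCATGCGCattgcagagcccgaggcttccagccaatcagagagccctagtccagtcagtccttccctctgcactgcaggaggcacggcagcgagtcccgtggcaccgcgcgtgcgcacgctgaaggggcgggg

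Both strands were searched. As 2 members had 2 windows, a gene was counted once if any of its windows held the string. AAGATGGC is the string of YY1, a zinc finger factor. It lay in 8 of the 42 members with windows (19%), against 5.42% of tested and 3.19% of all genes with windows. In all 8 (Ndufa3, Ndufa9, Ndufaf8, Ndufb8, Ndufc1, Ndufs4, Ndufs6 and Ndufs7) it stood on the gene's own strand, with its first base 10 to 38 bases past the start. GCATGCGC is the core string of NRF1, a regulator of nuclear genes of the respiratory chain. It lay in 5 members (11.9%), against 6.02% of tested and 3.05% of all genes with windows. These were Ndufa11, Ndufa6, Ndufa8, Ndufaf4 and Ndufaf5, and 3 of them also held the longer NRF1 string, which contains the core. The ETS string CCGGAAG lay in 6 (14.3%, against 20.1% and 9.93%), and the SP1 string GGGCGG in 21 (50%, against 60.1% and 38.2%). The window of Ndufv1 held none of the strings searched. A match is a run of letters and was not tested as a binding site.

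All 51 members passed the filter for low values, set at 1 FPKM or more in 3 or more libraries, among 10340 genes tested. Their mean levels ran from 0.975 FPKM for Ndufaf1 to 959 for Ndufa2, with a median of 157.3 against 6.624 over all genes tested. The subunits together made up 1.34 to 1.83% of the FPKM sum of a library. Their summed level was 7803, 10740 and 6862 FPKM in control 1, 2 and 3, and 10557, 10319 and 8721 in aminophylline 1, 2 and 3. Control 2 had the highest sum of all and the other 2 controls the lowest, so the groups overlapped. The lengths used for FPKM, recovered from the values, were above the longest coding transcript in GENCODE M21 for 14 of 46 members with such transcripts. For Ndufs1, for example, the length was 3657 bases against 2661, and for Ndufa11 2661 against 918, which bears on levels compared between genes but not between libraries.

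**Figure D1:**
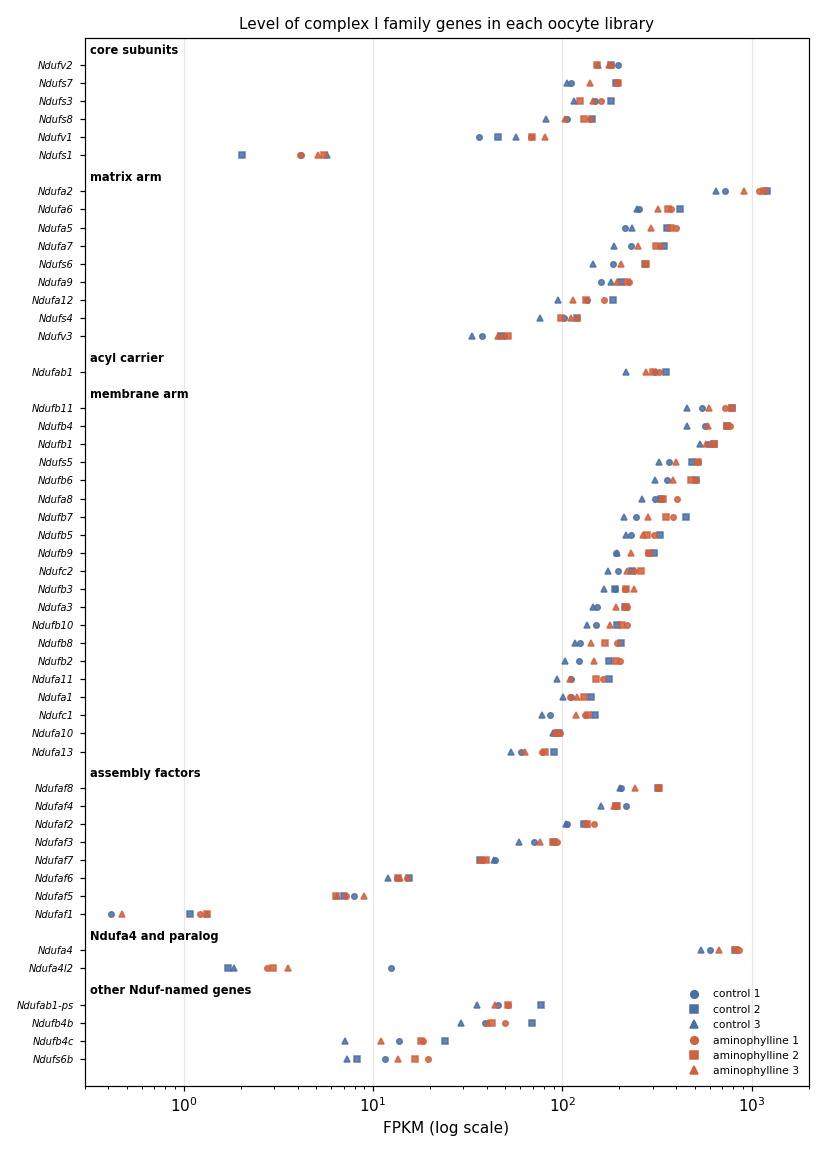
FPKM (log axis) of the genes described, in each of the 6 libraries, grouped by role and ordered by mean level; circles, squares and triangles are libraries 1, 2 and 3 of control (blue) and aminophylline (orange). Most subunits lie between 50 and 1000 FPKM, with Ndufs1 far below the other core subunits, and control 2 sits with the aminophylline libraries for many genes.

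With aminophylline, 46 of the 51 members (90.2%) had a higher mean on the log2(FPKM + 1) scale, against 64.8% of all genes tested. Their median log2 fold change was 0.24 (quartiles 0.06 and 0.31), against 0.10 over all genes tested. Few of these differences passed a test. By limma, 3 of 51 were higher with aminophylline at an unadjusted p under 0.05 (among them Ndufv1 and Ndufs6b) and 0 were lower, where 4.41% of all genes tested were higher and 2.84% lower, so the count of 3 lay near that share of the whole table. The 51 genes share the same 6 libraries and are not replicates. With the replicate number as a block, 8 of 51 were higher (among them Ndufa2, Ndufa5, Ndufb2, Ndufs6, Ndufs6b, Ndufs7 and Ndufv1), where 9.88% of all genes were. After Benjamini-Hochberg adjustment over all genes tested, 0 members and 0 genes passed 0.05, and the smallest adjusted p of a member was 0.651 (limma). With the block, limma gave 0 members and 47 genes past that threshold, and the smallest adjusted p of a member was 0.056.

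The libraries of the groups did not overlap for 5 members, all higher with aminophylline (among them Ndufv1, Ndufs6b, Ndufb3 and Ndufaf2), and for 0 lower, where 7.51% of all genes did not overlap higher and 4.96% lower, again close to the share over all genes. The median log2 fold change was 0.32 over the core subunits, 0.27 over the other matrix arm subunits, 0.25 over the membrane arm and 0.06 over the assembly factors. With the values of each library corrected for GC content and length, they were 0.08, 0.10, 0.03 and 0.03, against 0.01 over all genes. After this correction 6 of 9 matrix arm and 11 of 20 membrane arm subunits were above 0. The median of the assembly factors was -0.01 under quantile normalization and -0.02 under median centring.

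**Figure D2:**
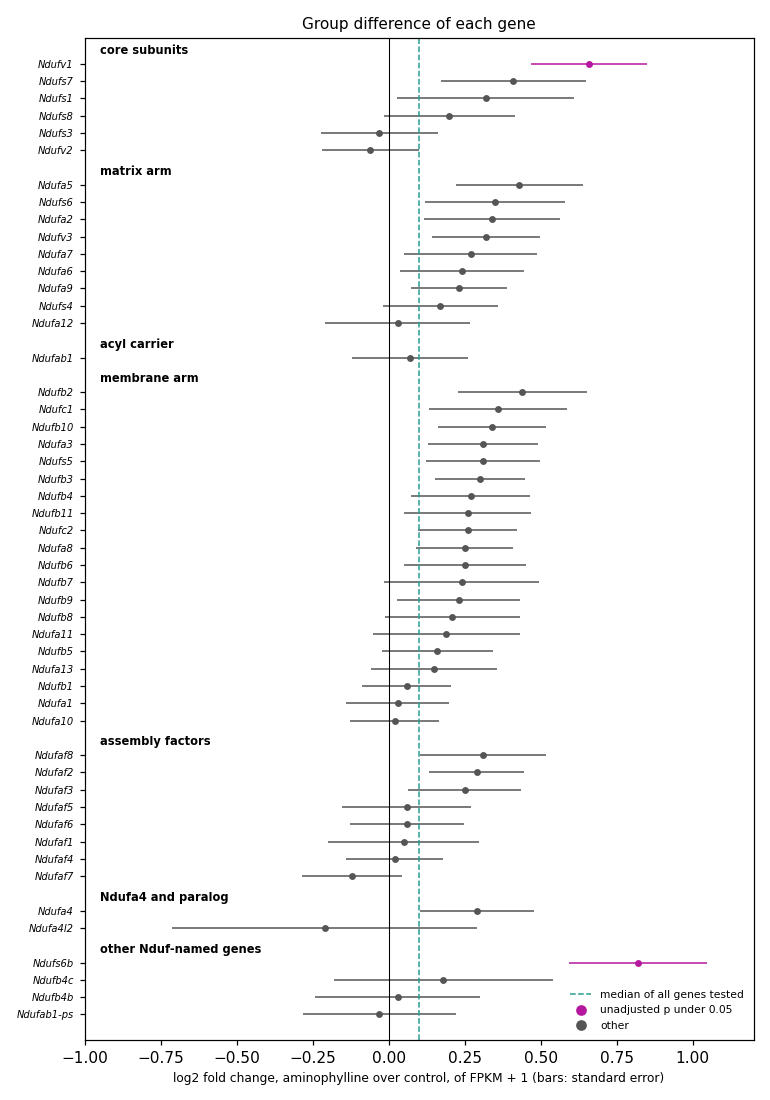
Log2 fold change of FPKM + 1, aminophylline over control (points), with its standard error (bars), for the genes described, by role; purple marks an unadjusted p under 0.05 and the dashed line the median of all 10340 genes tested, 0.10. All 20 membrane arm subunits lie above 0, between 0.02 and 0.44, and most bars of the assembly factors cross 0.

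Among the core subunits, those conserved from bacteria, Ndufv1 was higher with aminophylline. NDUFV1 binds NADH and the flavin to which it passes its electrons. Ndufv1 measured 36.2, 45.7 and 56.7 FPKM in control 1, 2 and 3 and 68.0, 68.9 and 80.7 in aminophylline 1, 2 and 3. Every aminophylline library was above every control library. The log2 fold change was 0.66 (SE 0.191, 1.58-fold, limma p = 0.00547, adjusted p = 0.651), and the exact two-sided permutation p was 0.1, the smallest 3 against 3 libraries can give.

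The partners of NDUFV1 in the NADH-oxidising module, Ndufv2 and Ndufs1, did not pass the test. Ndufv2, for an iron-sulphur protein that sits beside NDUFV1, measured 197, 180 and 155 FPKM in control 1, 2 and 3 and 181, 152 and 177 in aminophylline 1, 2 and 3, and its log2 fold change was -0.06 (limma adjusted p = 0.934). Ndufs1, for a subunit that holds several of the clusters, was the lowest core gene, at 4.19, 2.03 and 5.70 FPKM in control and 4.14, 5.51 and 5.15 with aminophylline, groups that overlapped. The ratio of Ndufv1 to Ndufv2 was 0.183, 0.253 and 0.367 in control 1, 2 and 3 and 0.376, 0.452 and 0.455 in aminophylline 1, 2 and 3, so control 3 and aminophylline 1 nearly met.

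Further core subunits line the path from the clusters to ubiquinone. Ndufs7, whose protein carries the last cluster before ubiquinone, measured 111, 193 and 106 FPKM in control and 195, 198 and 140 with aminophylline (libraries 1, 2 and 3 of each). Control 2 lay with aminophylline 1 and 2 and above aminophylline 3, and Ndufs7 passed the unadjusted threshold with the block but not without it (limma adjusted p = 0.286 and 0.721). Ndufs8, another iron-sulphur protein, measured 106, 143 and 81.7 FPKM in control and 141, 130 and 103 with aminophylline. Ndufs3, which has no cluster, measured 149, 180 and 116 FPKM in control and 161, 124 and 146 with aminophylline, and control 2 was highest of the 6 for both of these genes.

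**Figure D3:**
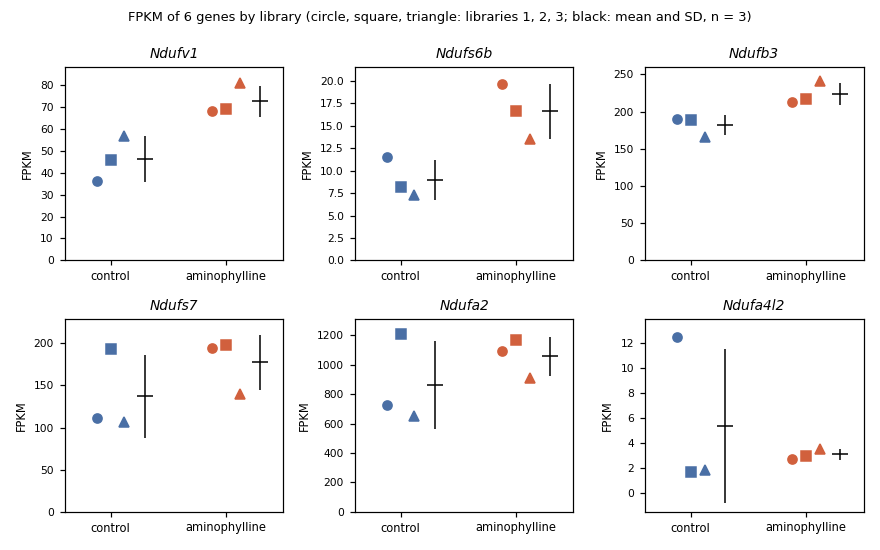
FPKM of single genes in each library of control (blue) and aminophylline (orange), with the mean and SD of each group (n = 3) in black, on axes of their own. For Ndufv1, Ndufs6b and Ndufb3 the groups do not overlap. For Ndufs7 control 2 lies among the aminophylline libraries, and for Ndufa2 it lies above all of them. For Ndufa4l2 control 1 stands apart at 12.5 FPKM.

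The 9 other subunits of the matrix arm all had positive log2 fold changes, from 0.03 for Ndufa12 to 0.43 for Ndufa5, and 0 passed an unadjusted p of 0.05 by limma (smallest adjusted p = 0.688). Ndufa2, a thioredoxin-like subunit and the highest of all 51 genes, measured 728, 1205 and 652 FPKM in control 1, 2 and 3 and 1096, 1167 and 909 in aminophylline 1, 2 and 3. The highest library was a control, and the log2 fold change was 0.34 (limma adjusted p = 0.728, or adjusted p = 0.349 with the block). Ndufv3, the lowest of these 9, which adds a small subunit beside NDUFV1, measured 37.8, 47.4 and 33.5 FPKM in control and 49.5, 51.8 and 45.8 with aminophylline. Ndufa5 was singled out after its values were seen, for its place near the threshold, with 216, 358 and 234 FPKM in control, 397, 376 and 294 with aminophylline, and its log2 fold change was 0.43 (limma adjusted p = 0.688, or adjusted p = 0.266 with the block). Ndufs6, a zinc-binding subunit, and Ndufs4, an accessory subunit mutated in some cases of Leigh syndrome, had log2 fold changes of 0.35 and 0.17. Ndufab1, the acyl carrier protein of both arms, measured 308, 355 and 217 FPKM in control and 325, 304 and 278 with aminophylline, and its groups overlapped.

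The 20 membrane arm subunits had log2 fold changes between 0.02 and 0.44, and 0 passed an unadjusted p of 0.05 by limma. Ndufb11, the highest, measured 551, 791 and 455 FPKM in control and 729, 787 and 597 with aminophylline, with control 2 the highest library. Ndufa13, the lowest, also known as GRIM-19, measured 60.9, 90.2 and 53.9 FPKM in control and 78.4, 80.7 and 63.8 with aminophylline, again with control 2 highest. Ndufa10, a subunit of nucleoside kinase fold, varied least, from 89.9 to 97.3 FPKM over the 6 libraries.

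Ndufb2 and Ndufb3, small subunits that each cross the membrane, were also chosen after their values were seen. Ndufb2 had the smallest p of the arm and measured 123, 176 and 104 FPKM in control and 202, 191 and 147 with aminophylline (log2 fold change 0.44, limma adjusted p = 0.688, or adjusted p = 0.246 with the block). Ndufb3 was the membrane arm gene whose groups did not overlap, at 191, 189 and 166 FPKM in control and 213, 217 and 241 with aminophylline (log2 fold change 0.30, limma adjusted p = 0.688).

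The 8 assembly factors had levels from 0.975 to 269 FPKM, and 0 passed an unadjusted p of 0.05 by limma (smallest adjusted p = 0.706). Ndufaf8, which works with the NDUFS7 hydroxylase NDUFAF5, was the highest, at 204, 320 and 202 FPKM in control and 322, 324 and 242 with aminophylline. Ndufaf1, which builds the membrane arm within the MCIA complex, was the lowest, at 0.413, 1.08 and 1.33 FPKM in control and 1.22, 1.34 and 0.476 with aminophylline. These values rest on 21, 23, 64, 52, 50 and 22 reads, and the groups overlapped. Ndufaf2, a paralog of NDUFA12 that acts late in assembly, did not overlap between groups, at 106, 130 and 105 FPKM in control and 147, 135 and 135 with aminophylline (log2 fold change 0.29, limma adjusted p = 0.706). It was chosen after its values were seen. Ndufaf7, a methyltransferase that modifies a core subunit, was the only assembly factor with a lower mean, its log2 fold change being -0.12 (limma adjusted p = 0.843).

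Among the remaining genes, Ndufs6b had the largest difference of all members. It is a short copy related to Ndufs6, at chr7:81161273-81161746, which RefSeq lists as a pseudogene in GRCm38.p6 although the deposited table lists it as protein coding. Ndufs6b measured 11.5, 8.22 and 7.30 FPKM in control 1, 2 and 3 and 19.7, 16.6 and 13.6 in aminophylline 1, 2 and 3. The groups did not overlap, and the log2 fold change was 0.82 (SE 0.227, 1.77-fold, limma p = 0.00402, adjusted p = 0.651, or adjusted p = 0.056 with the block), with an exact two-sided permutation p of 0.1. The values rest on 184, 55 and 110 reads in control and 263, 195 and 197 with aminophylline, which may be shared with Ndufs6. Relative to Ndufs6 its level was 0.0621, 0.0300 and 0.0505 in control and 0.0720, 0.0599 and 0.0665 with aminophylline, and on this ratio control 1 lay above aminophylline 2.

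The other 3 such genes may share reads with their relatives too. Ndufab1-ps, which RefSeq also lists as a pseudogene, measured 45.9, 77.7 and 35.4 FPKM in control and 52.0, 51.9 and 44.4 with aminophylline. Ndufb4b and Ndufb4c, copies of Ndufb4, likewise were highest in control 2, at 69.7 and 24.0 FPKM, and their groups overlapped.

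Ndufa4, now placed in complex IV, measured 607, 814 and 538 FPKM in control and 862, 831 and 672 with aminophylline. Its paralog Ndufa4l2, a hypoxia-induced gene, measured 12.5, 1.72 and 1.86 FPKM in control and 2.77, 2.98 and 3.58 with aminophylline. Control 1 stood far above all other libraries, the same library in which 10 of 12 macrophage markers were highest, and the part of these cells in the Ndufa4l2 value was not tested. Its log2 fold change was -0.21 (limma adjusted p = 0.925) with all libraries and 0.55, past the unadjusted threshold, without control 1.

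The members shared a pattern from library to library. Their median deviation from each gene's mean over the 6 libraries was -0.21, 0.21 and -0.38 in control 1, 2 and 3 and 0.22, 0.19 and -0.05 in aminophylline 1, 2 and 3 (log2 scale). Control 2 was the highest control for 40 of 51 members and above every aminophylline library for 20. Control 3 was the lowest of all 6 libraries for 40, and aminophylline 3 the lowest of its group for 40. Aminophylline 1 and 2 were both above control 1 and 3 for 39, while control 2 was above aminophylline 3 for 43.

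Short genes as a whole deviated with the same sign as the members in all but 1 library. The members' median length was 904 bases against 2771 over all genes tested. Genes under 1000 bases, 1450 of those tested, had median deviations of -0.12, 0.13 and -0.25 in control 1, 2 and 3 and 0.15, 0.13 and 0.00 in aminophylline 1, 2 and 3. Genes of 2500 bases or more, 5659 in all, stood at -0.11, -0.21 and 0.22 in control and -0.12, 0.06 and 0.16 with aminophylline. The median log2 fold change was 0.17 over all tested genes under 1000 bases, 74.4% of which were above 0, against 0.27 over the 28 members of such length and 0.16 over the 23 longer members.

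**Figure D4:**
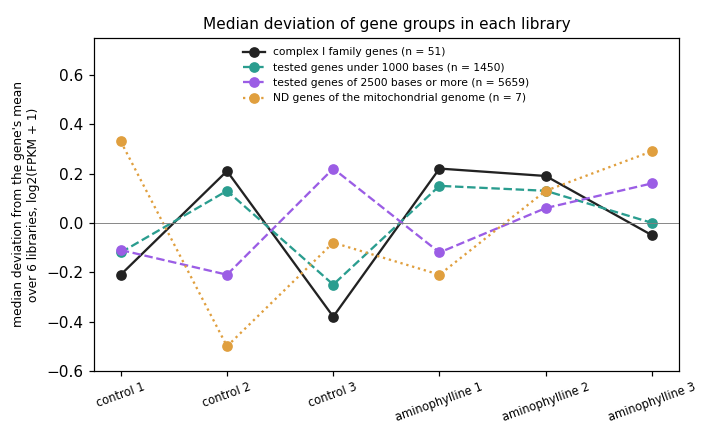
Median deviation, on the log2(FPKM + 1) scale, from each gene's mean over the 6 libraries, for the 51 members (black), tested genes under 1000 bases (green), tested genes of 2500 bases or more (violet) and the 7 ND genes of the mitochondrial genome (yellow). The members and the short genes are highest in control 2 and aminophylline 1 and 2 and lowest in control 3, while the ND genes are lowest in control 2, at -0.50.

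After a correction of each library for GC content and length, the members' median log2 fold change was 0.05, against 0.01 over all genes. Of the 51 members, 31 (60.8%) were then above 0, against 51.4% of all genes. Under median centring alone the members' median was 0.16, against 0.01 over all genes. GC content was known for 46 of the 51, and the other 5 (Ndufs6b, Ndufab1-ps, Ndufb1, Ndufb4b and Ndufb4c) were corrected for length alone. Ndufv1 (log2 fold change 0.45), with both corrections, and Ndufs6b (0.64), with that for length, kept an unadjusted limma p under 0.05. With the block as well, 4 members were higher, among them Ndufv1, Ndufs6b and Ndufb2 but not Ndufs7, Ndufa5, Ndufa2 or Ndufs6, and 0 of all genes passed an adjusted p of 0.05 by limma, where 564 were higher at an unadjusted p under 0.05. Leaving out control 2, the library with the fewest reads, gave a median of 0.41, against 0.07 over all genes, and 30 of 51 members higher, where 8.32% of all genes were. Leaving out control 3 gave a median of 0.10, below the 0.13 of all genes, and 3 of 51 members higher, where 11.7% of all genes were. Leaving out aminophylline 3 gave a median of 0.33, against 0.06 over all genes, and 5 of 51 members higher, where 2.37% of all genes were. Without control 1, aminophylline 1 and aminophylline 2 in turn, the medians were 0.20, 0.19 and 0.21, against 0.07, 0.12 and 0.09 over all genes. The members' median thus lay below that of all genes only without control 3, and above it without any other single library.

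The genes of complex I outside the Nduf names were read beside these. Of 9 other assembly factors tested, among them Acad9, Ecsit and Tmem126b, 0 passed an unadjusted p of 0.05 by limma, and their median log2 fold change was 0.06. The 7 ND genes, which the mitochondrial genome encodes, had a median of 0.14, or -0.07 without control 2. At an unadjusted p under 0.05 by limma 1 of them, ND4L, was higher with aminophylline, where 4.41% of all genes were. ND4L measured 1.10, 0.477 and 0.847 FPKM in control and 1.55, 1.36 and 1.43 with aminophylline, low levels without overlap (log2 fold change 0.45, limma adjusted p = 0.682). The ND genes had median deviations of 0.33, -0.50 and -0.08 in control 1, 2 and 3 and -0.21, 0.13 and 0.29 in aminophylline 1, 2 and 3, so that control 2, high for the nuclear genes, was lowest for these.

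The other respiratory complexes, given side by side with no test between them, had medians of -0.07 for the 4 genes of complex II, 0.24 for 9 of complex III, 0.30 for 10 of complex IV and 0.17 for 15 of complex V, against 0.25 for the 37 subunits of complex I. After the correction for GC content and length the medians were -0.28, -0.04, 0.05 and 0.06 for complexes II to V and 0.06 for complex I. The median over all genes was then 0.01. At an unadjusted p under 0.05 by limma, 1 gene of complex III (Uqcrq) and 2 of complex V (Atp5k and Atp5l) were higher. Over all genes tested 4.41% were. With the block, Sdha of complex II, Uqcrfs1 of complex III and Cox4i1, Cox6c and Cox7c of complex IV were higher too. The share over all genes with the block was 9.88%. Uqcrq measured 193, 255 and 184 FPKM in control and 298, 293 and 247 with aminophylline (limma adjusted p = 0.682). Atp5k measured 359, 483 and 326 FPKM in control and 525, 522 and 467 with aminophylline (limma adjusted p = 0.684), and Atp5l 144, 244 and 160 in control and 245, 268 and 222 with aminophylline (limma adjusted p = 0.684). For each, control 2 was the highest control library, as it was for most complex I members.

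**Figure D5:**
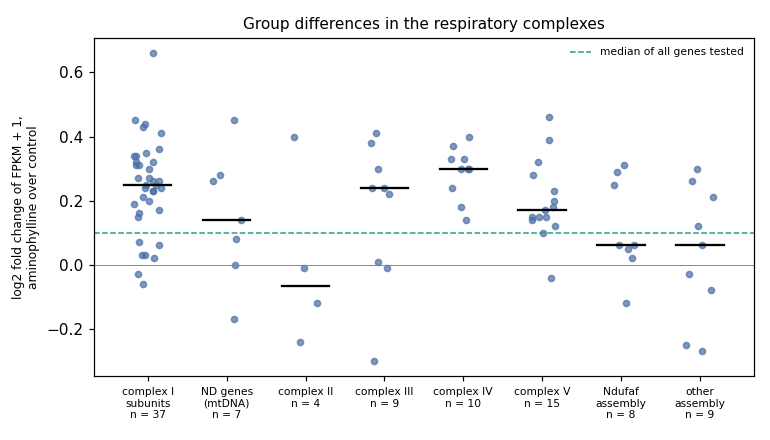
Log2 fold change of FPKM + 1, aminophylline over control, of each gene (points, spread sideways at random) of the respiratory complexes and assembly factors; bars are medians and the dashed line is the median of all genes tested, 0.10. The medians of complex I subunits, 0.25, and complexes III, IV and V lie above the dashed line, and those of complex II and of both groups of assembly factors below it.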

How the data were processed

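RNA from 3 control and 3 aminophylline libraries was analysed from FPKM values per gene that the authors deposited. They were made from fragments counted on genes, with no further scaling between libraries. Build GRCm38 (mm10) is in the submitters' processing notes, and the aligner, counter and annotation are not given in the sources used here. Groups and replicate numbers came from the labels, and age, dose and times from the study's methods. Members and lists were chosen with earlier results of these data known.

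Reads behind the values were recovered, and 100% of the values of 22583 genes came within 0.01 of a whole read. Between 99.573% and 99.631% of the reads of a library lay on listed genes. The number of reads limits the precision of low genes.

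Groups were compared with limma 3.58.1 in R 4.3.3 (moderated variance with a trend on the mean) on log2(FPKM + 1), two-sided, on genes at 1 FPKM or more in 3 or more libraries. Fold changes on this scale understate those of low genes. Adjusted p-values are Benjamini-Hochberg values over all genes tested. Values in every library were given for members with an unadjusted p under 0.05, core subunits, and the highest and lowest member of each role, and for genes outside the rule with such a p. The values of 1 member are not reported here, though it stays in the counts and medians. Python 3.11.15 searched the promoters. The code was tested on simulated data.

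Both groups carry the numbers 1 to 3 in their labels, which were checked for pairing. With the group mean taken off, libraries of equal number correlated at 0.138, 0.14 and 0.552. Correlations between libraries of unequal number were not computed, and the labels do not say what the numbers mark, so pairing was not shown. The block fit is given beside the main fit for the case that the numbers mark pairs. Alternatives were a pseudocount of 0.1, no filter, a mean FPKM of at least 5, median centring, quantile normalization, rescaling to a common sum (TPM), an unmoderated model, the replicate block, a correction for GC content and length (GC content known for 85.9% of tested genes, the rest corrected for length alone), both together, and leaving out each library. limma's voom on recovered reads was added after seeing the data. The quasi-likelihood test of edgeR, listed for a table of counts, was not run, and the recovered reads were tested with voom.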

Additional observations from a re-analysis of the deposited data

How the results depend on the processing

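The count of members lower with aminophylline and the count at an adjusted p under 0.05 were 0 under all 17 alternatives. Ndufv1 (log2 fold change 0.45 to 0.82) and Ndufs6b (0.64 to 1.0) kept an unadjusted p under 0.05 in 17 of 17, though Ndufs6b has no GC value and its 0.64 is corrected for length alone. With the replicate block, 8 members were higher, and over all genes 1022 were higher, 445 lower and 47 past an adjusted p of 0.05. With the correction for GC content and length too, these were 4 members, 564, 808 and 0. Among the members, the block changed the call of Ndufs7, Ndufb2, Ndufa5, Ndufa2 and Ndufs6 and of no other. The membrane arm median was 0.03 with the correction for GC content and length, with or without the replicate block. Leaving out 1 library gave 2 to 30 members higher, the 30 without control 2 (849 of all genes), 5 without aminophylline 3 (237), 3 without control 3 (1171) and 2 without aminophylline 2 (191), membrane arm medians of 0.10 (without control 3) to 0.45 (without control 2), matrix arm medians of 0.14 (without control 3) to 0.48 (without control 2), and assembly factor medians of 0.05 to 0.17 (without aminophylline 3). Ndufa4l2 ran from -0.60 without control 2 to 0.55 without control 1. Over all genes, where 456 were higher and 294 lower, the counts were 917 and 487 with no filter, 294 higher with a mean FPKM of at least 5, 282 higher with a common sum, 528 lower under quantile normalization, 281 and 502 under median centring, and 577 lower with the GC and length correction. Leaving out 1 library gave 191 to 1171 higher and 125 (without aminophylline 2) to 744 (without control 2) lower. The causes were not tested. What depth limits was not measured; Ndufaf1 had the fewest reads among the members, 21 to 64 a library.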
